A study of Mus musculus with 9 samples.

Results

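DNA replication and E2F genes comprised 44 genes of the 48526 genes in the deposited count table, chosen by name for their known roles at the replication fork and in the entry into S phase, and found through their Ensembl identifiers. All 44 were found and all 44 passed the filter on low counts, which kept 18858 genes. By role they were 4 genes of origin recognition and licensing, the 6 subunits of the MCM2-7 helicase, 7 genes that activate the helicase, 8 subunits of primase and the replicative polymerases, 6 genes of the sliding clamp and its loader, 4 genes that bind single-stranded DNA or complete the lagging strand, 4 genes that supply deoxynucleotides, Uhrf1 and the transcription factors E2f1, E2f2, E2f7 and E2f8. The rule itself used no measured value, but the genes and the tests were chosen with earlier results of these data known. When libraries of the same replicate number were compared with each other, 37 of the 44 genes were lower at 6 h of differentiation than at 0 h and none was higher, beside 17.5% of all tested genes lower by the same rule, and the change had a median of -21.9%. At 1 h, 2 of the 44, E2f2 and E2f8, were lower by that rule, beside 2.14% of all tested genes. Neither passed when replicate number 1 or 3 was left out, and E2f2 did not pass without number 2 either. In edgeR, no gene of the 44 passed at either time when the replicate number was left out of the model.

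The libraries came from cultured neural stem cells (NSCs) of the subependymal zone (SEZ), the stem cell niche along the lateral ventricles of the brain, of adult mice, whose strain the labels give as C57BL/6 and the methods of the study as wild-type C57BL/6J, at 2 to 4 months of age. The cells were grown as neurospheres, and differentiation was induced on an adhesive substrate in medium without epidermal growth factor (EGF), while fibroblast growth factor was kept. For early time points of fixed cells the methods describe seeding in complete medium beforehand, and whether the cells for sequencing were plated before 0 h is not given in the sources used here. Messenger RNA was sequenced at the start (0 h) and after 1 h and 6 h, with 3 libraries per time point and the replicate numbers 1, 2 and 3 at each. No genotype, drug or sorting step separated the groups, and the 0 h libraries were the only reference, so that time and the change of conditions cannot be told apart.

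Replication origins are licensed in G1 phase, when the origin recognition complex, Cdc6 and Cdt1 load the MCM2-7 helicase on DNA, and they fire in S phase, when Cdc45 and the GINS complex join the helicase and the polymerases follow. Most of these genes are transcribed in a wave at the border of G1 and S phase by E2F factors, which RB family proteins hold in check until cyclin-dependent kinases release them. E2F1 and E2F2 are known as activators, and E2F7 and E2F8 as repressors that close the wave. NSCs in culture divide in response to EGF, and they leave the cell cycle as they differentiate.

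The values are CPM, the counts of a gene relative to the total of its library after TMM scaling. Total counts were between 65871454 and 105592597 per library. NSC markers such as Nes and Vim, which code for intermediate filaments, were present in every library, and the 8 NSC markers summed to between 7595 and 9198 CPM at 0 h and between 6711 and 8519 CPM at 6 h. The 6 markers of the oligodendrocyte lineage summed to between 613 and 785 CPM at 0 h and between 878 and 1049 CPM at 6 h. Of the 6, 5 passed as higher with the replicate number in the model. In that model, 17.4% of all tested genes passed as higher at 6 h against 0 h and 17.5% as lower. Higher in 3 of 3 replicate numbers were 5932 of the 18858 tested genes. The 6 markers of microglia and blood were each under 1 CPM on average, with Hbb-bs at 0 in every library, and summed to between 0.244 and 0.351 CPM at 0 h and between 0.0814 and 0.242 CPM at 6 h, and Csf1r, the 1 of them that was tested, was lower at 6 h. The 6 markers of neurons and neuroblasts, of which Map2 had by far the most counts, summed to between 931 and 1473 CPM at 0 h and between 889 and 1527 CPM at 6 h. With the replicate number in the model, 3 of these 6 were higher at 6 h and in 3 of 3 numbers, which were Tubb3 (2.09-fold, adjusted p = 2.1e-06), Rbfox3 (2.35-fold, adjusted p = 6.8e-05) and Snap25 (1.41-fold, adjusted p = 0.019), each at most 10.1 CPM in a library. The other 3 did not pass in that model. Their log2 fold changes were -0.35 for Dcx, -0.77 for Stmn2 and -0.01 for Map2, and Dcx and Stmn2 averaged under 1 CPM. The 3 markers of ependyma summed to between 45.8 and 86.9 CPM at 0 h and between 37.4 and 59.5 CPM at 6 h, and the 5 of endothelium and mural cells to between 3.51 and 6.23 CPM and between 2.28 and 3.79 CPM. Of these, Foxj1, Ccdc153, Kdr and Rgs5 were lower at 6 h in that model. Dnah5 and Pecam1 had log2 fold changes of 0.48 and 0.29 that did not pass, and Cldn5 and Cdh5 were not tested. The 4 markers of astrocytes summed to between 67.2 and 215 CPM at 0 h and between 73.3 and 223 CPM at 6 h. Gfap was lower, at under 2 CPM. Aqp4, Aldh1l1 and S100b did not pass, with log2 fold changes of 0.14, 0.10 and 0.21. The part of these shifts in the changes of replication genes was not tested.

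Within each replicate number, the 44 genes together took a smaller share of the counts at 6 h than at 0 h or 1 h. They held 0.585%, 0.425% and 0.579% of all counts in replicates 1, 2 and 3 at 0 h, 0.566%, 0.420% and 0.600% at 1 h, and 0.499%, 0.314% and 0.493% at 6 h. The time points overlapped across numbers, since both earlier libraries of replicate 2 lay under 6 h replicates 1 and 3. In bulk RNA, fewer cells in S phase and less of these transcripts per cell cannot be told apart.

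Replicate 2 stood apart from replicates 1 and 3 in these genes. Averaged over the 3 time points, replicate 2 was the lowest of the 3 numbers for 43 of the 44 genes, the exception being Fen1. The range between the replicate numbers had a median of 0.56 on the log2 scale, against a median of 0.36 for the size of the change from 0 h to 6 h, and it was the wider of the 2 in 37 of 44 genes. The difference between 6 h and 0 h was nevertheless negative for most genes within each number, with a median over the 44 genes of -0.30 in replicate 1, -0.47 in replicate 2 and -0.29 in replicate 3, beside medians of -0.003, 0.004 and -0.008 over all tested genes. The labels do not state what libraries of the same number share, so p-values describe the spread between these libraries, which may be technical.

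**Figure D1:**
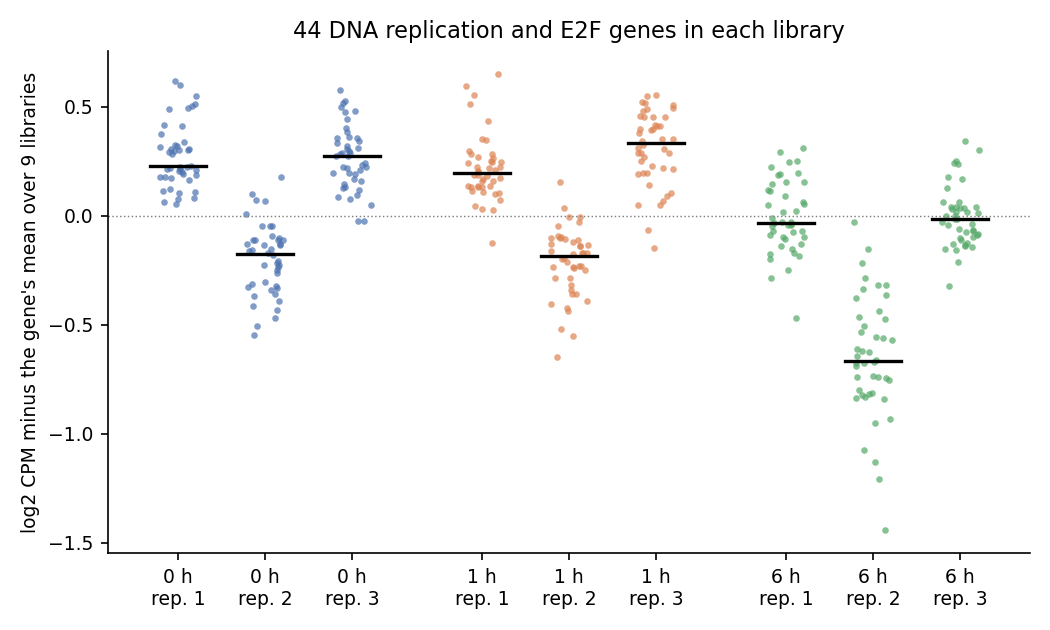
Each point is 1 of the 44 genes in 1 library, as log2 CPM minus the mean of that gene over the 9 libraries, and the black bars are medians. The medians were 0.23, -0.18 and 0.27 at 0 h, 0.19, -0.19 and 0.33 at 1 h and -0.03, -0.67 and -0.01 at 6 h in replicates 1, 2 and 3, so that replicate 2 was lowest at every time and each number was lowest at 6 h.

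The test depended on whether the replicate number entered the model. In the fit of time alone (edgeR quasi-likelihood test, Benjamini-Hochberg adjustment over 18858 genes), 0 of the 44 genes passed an adjusted p of 0.05 at 6 h against 0 h, with adjusted p-values between 0.0977 and 0.997, where 0.955% of all genes passed as lower. At an unadjusted p under 0.05, 8 of the 44 were lower and 0 higher, beside 8.60% of all genes lower. DESeq2 without the replicate number called 3 of the 44 lower, Pola1, Rfc1 and Fen1, beside 4.87% of the genes for which it gave an adjusted p. With the replicate number as a block, 37 of the 44 genes were lower and 0 were higher at 6 h, where 17.5% of all genes passed as lower and 17.4% as higher. The median log2 fold change over the 44 was -0.36 with the block and -0.34 without it, and the latter was -0.16 without 6 h replicate 2 and -0.47 without 0 h replicate 2. In the following, rose and fell refer to genes past the threshold in the fit with the block, and fold changes, standard errors (SE) and adjusted p-values are those of that fit.

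Of the 44 genes, 41 were lower at 6 h than at 0 h in 3 of 3 replicate numbers, beside 31.7% of all tested genes, and 9 had the 3 libraries of 6 h below all 3 of 0 h, beside 12.1% of all tested genes. These 9 genes were Orc1, Orc6, Mcm4, Gins4, Pola1, Rfc1, Rfc4, Fen1 and Tyms. The 7 genes that did not pass in either direction were Cdc7, Gins2, Gins3, Pold1, Pold2, Rfc2 and Rpa1, with log2 fold changes between -0.15 and 0.14.

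The promoters of these genes are of interest because E2F factors bind a short motif near the start of many S phase genes. RefSeq promoters (build GRCm38.p6, from 250 bases before the start of transcription to 50 bases after it) matched 37 of the 44 genes, and Mcm4, Gins1, Gins2, Gins4, Prim2, Pole and Rfc2 were without an entry. They were searched on both strands for TTTGGCGC, TTTGCCGC, TTTCGCGC and TTTCCCGC, the spellings of the E2F motif. At least 1 of the 4 was found in 16 of the 37 genes, which is 43.2%, beside 2.61% of all 27025 genes with a promoter in that set and 4.42% of the 11963 of these tested here. The promoters of Mcm6, Mcm3, Mcm5, Pole2, Pola1, the licensing gene Cdt1, E2f2 and Gins3 show the range, with the motif in capitals. Mcm6 held 3 matches, Mcm3 and Mcm5 held 2 each, and in Mcm5 and at the first site of Mcm6 a pair of matches on opposite strands shared bases and made up 1 longer run. Pole2 and Pola1 had the strongest falls, E2f2 changed at the earlier time, and Gins3 held a match without a fall.
Mcm6 (chr1:128359656-128359955, minus strand): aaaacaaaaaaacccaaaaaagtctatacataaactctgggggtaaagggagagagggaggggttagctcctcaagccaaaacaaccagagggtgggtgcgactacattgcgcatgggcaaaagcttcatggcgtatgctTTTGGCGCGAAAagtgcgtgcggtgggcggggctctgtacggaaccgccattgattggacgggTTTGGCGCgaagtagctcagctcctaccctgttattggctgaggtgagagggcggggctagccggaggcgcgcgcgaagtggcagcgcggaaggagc
Mcm3 (chr1:20820263-20820562, minus strand): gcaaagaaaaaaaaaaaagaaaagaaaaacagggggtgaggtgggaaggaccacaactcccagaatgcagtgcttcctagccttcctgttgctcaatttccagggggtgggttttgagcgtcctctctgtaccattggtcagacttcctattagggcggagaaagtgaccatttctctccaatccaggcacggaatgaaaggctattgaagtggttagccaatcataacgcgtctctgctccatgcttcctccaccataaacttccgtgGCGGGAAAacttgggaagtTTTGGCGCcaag
Mcm5 (chr8:75109259-75109558, plus strand): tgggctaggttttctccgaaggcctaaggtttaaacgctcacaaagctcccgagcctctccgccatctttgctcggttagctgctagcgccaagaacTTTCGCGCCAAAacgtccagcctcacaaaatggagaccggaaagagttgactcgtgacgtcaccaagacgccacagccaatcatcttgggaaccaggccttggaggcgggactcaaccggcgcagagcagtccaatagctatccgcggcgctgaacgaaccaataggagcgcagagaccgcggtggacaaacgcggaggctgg
Pole2 (chr12:69228141-69228440, minus strand): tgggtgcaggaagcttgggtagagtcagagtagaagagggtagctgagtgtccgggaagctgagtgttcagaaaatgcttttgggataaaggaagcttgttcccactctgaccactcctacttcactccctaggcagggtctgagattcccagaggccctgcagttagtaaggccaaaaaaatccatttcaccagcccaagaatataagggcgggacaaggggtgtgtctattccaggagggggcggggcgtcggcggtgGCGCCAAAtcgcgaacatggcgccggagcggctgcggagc
Pola1 (chrX:93632106-93632405, minus strand): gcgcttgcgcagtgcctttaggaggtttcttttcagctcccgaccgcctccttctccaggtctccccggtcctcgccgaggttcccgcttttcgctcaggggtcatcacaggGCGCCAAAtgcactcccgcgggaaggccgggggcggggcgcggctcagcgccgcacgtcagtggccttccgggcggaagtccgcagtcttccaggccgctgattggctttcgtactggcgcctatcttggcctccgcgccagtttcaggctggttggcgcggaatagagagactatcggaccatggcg
Cdt1 (chr8:122567765-122568064, plus strand): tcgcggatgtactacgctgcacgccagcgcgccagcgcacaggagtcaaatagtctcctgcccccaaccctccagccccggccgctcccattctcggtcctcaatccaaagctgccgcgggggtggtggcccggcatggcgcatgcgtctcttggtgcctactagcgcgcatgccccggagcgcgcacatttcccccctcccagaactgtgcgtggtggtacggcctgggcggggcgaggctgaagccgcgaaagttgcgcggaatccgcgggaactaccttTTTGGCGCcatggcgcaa
E2f2 (chr4:136172024-136172323, plus strand): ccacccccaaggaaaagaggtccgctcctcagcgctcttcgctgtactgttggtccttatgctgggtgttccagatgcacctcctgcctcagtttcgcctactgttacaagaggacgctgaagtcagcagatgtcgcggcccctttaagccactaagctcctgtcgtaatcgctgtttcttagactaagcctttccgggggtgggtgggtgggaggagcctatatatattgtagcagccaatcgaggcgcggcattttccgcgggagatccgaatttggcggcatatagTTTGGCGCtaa
Gins3 (chr8:95633309-95633608, plus strand): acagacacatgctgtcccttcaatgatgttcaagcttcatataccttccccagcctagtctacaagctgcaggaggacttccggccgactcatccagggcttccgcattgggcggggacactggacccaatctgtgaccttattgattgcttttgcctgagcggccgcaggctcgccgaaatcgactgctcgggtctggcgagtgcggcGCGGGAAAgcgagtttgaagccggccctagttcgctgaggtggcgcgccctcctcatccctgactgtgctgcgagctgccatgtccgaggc

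Counted from the first transcribed base as 1, with bases before it negative, the matches of Mcm6 began at -110, -106 and -47, those of Mcm3 at 20 and 39, those of Mcm5 at -153 and -149, and that of Pole2 at 11. The match began at 33 in Cdt1, at 40 in E2f2, at -41 in Gins3 and at -138 in Pola1. Matches lay in Cdc6, Cdt1, E2f2, E2f7, Gins3, Lig1, Mcm3, Mcm5, Mcm6, Mcm7, Orc1, Pola1, Pold1, Pole2, Rfc3 and Uhrf1. Of the 16 genes with a match 14 fell at 6 h, and their log2 fold changes had a median of -0.37. Of the 21 genes with a promoter and no match 18 fell, and the median was -0.34. For E2f1, without a match, and Cdc6, with a match, the searched window lay wholly inside the annotated gene. Bases before the annotated start of these genes were therefore not searched. A match is a run of letters and was not shown to be bound in these cells.

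Among the licensing genes, all 4 fell at 6 h. Cdt1, which brings the helicase to origins, was at 60.0, 30.4 and 62.7 CPM at 0 h, 51.1, 29.3 and 61.7 CPM at 1 h, and 46.8, 19.2 and 43.1 CPM at 6 h in replicates 1, 2 and 3. Replicate 2 was below replicates 1 and 3 at every time, and the 6 h library was the lowest within each number. Cdt1 fell by 30.0% (log2 fold change -0.51, SE 0.08, adjusted p = 2.2e-04). Orc1, the largest subunit of the origin recognition complex, was at 11.97, 10.3 and 15.1 CPM at 0 h and at 9.77, 6.63 and 10.3 CPM at 6 h. Each 6 h library lay below each 0 h library, the closest being 10.29 CPM in 6 h replicate 3 and 10.30 CPM in 0 h replicate 2. Orc1 fell by 29.0% (log2 fold change -0.49, SE 0.08, adjusted p = 3.4e-04). Orc6 fell by 20.5% (adjusted p = 0.00153) and its groups did not overlap, and Cdc6, which helps to load the MCM ring, fell by 17.9% (adjusted p = 0.0124) with groups that overlapped.

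All 6 subunits of the MCM2-7 helicase, the ring that unwinds DNA ahead of the fork, fell at 6 h, by between 20.6% (Mcm2) and 30.9% (Mcm6), and none passed the threshold at 1 h. Mcm6 was at 468, 232 and 390 CPM at 0 h, 466, 233 and 402 CPM at 1 h, and 352, 134 and 294 CPM at 6 h. The 1 h libraries were close to the 0 h libraries of the same number, and the 6 h library was the lowest within each number, although 6 h replicates 1 and 3 stayed above both earlier libraries of replicate 2. The log2 fold change of Mcm6 at 6 h was -0.53 (SE 0.07, adjusted p = 1.2e-04), and within replicates 1, 2 and 3 the difference was -0.41, -0.80 and -0.41. Mcm3, whose promoter holds a pair of separate motif matches, was at 378, 182 and 281 CPM at 0 h and at 301, 117 and 224 CPM at 6 h, and it fell by 25.9% (adjusted p = 1.8e-04). Mcm5, with the joined matches, was at 228, 146 and 234 CPM at 0 h and at 178, 95.5 and 178 CPM at 6 h, and it fell by 26.8% (adjusted p = 8.3e-05). In both genes replicate 2 was lowest and the groups overlapped. Mcm4 was the 1 subunit with groups that did not overlap, at 265, 219 and 264 CPM at 0 h and 219, 147 and 211 CPM at 6 h, the closest values being 219.3 CPM in 0 h replicate 2 and 218.8 CPM in 6 h replicate 1. Mcm4 fell by 23.8% (adjusted p = 3.3e-04), and Mcm7 fell by 21.4% (adjusted p = 1.7e-04). Exons of Mcm7 share 12.6% of their bases with other genes, among them Mir25 and Mir93 on the same strand, and whether such shared reads were counted is not given in the sources used here.

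Of the 7 genes that turn the loaded ring into a working helicase, 4 fell and 3 did not pass. Mcm10, which helps to open the origin, was at 69.8, 52.5 and 73.8 CPM at 0 h, 62.1, 51.5 and 68.1 CPM at 1 h, and 52.9, 36.2 and 52.9 CPM at 6 h. Its 6 h values were below those of the same number at both earlier times, and 6 h replicates 1 and 3 lay just above 0 h replicate 2. Mcm10 fell by 27.8% at 6 h (log2 fold change -0.47, SE 0.06, adjusted p = 3.9e-05). Cdc45, a part of the active helicase, fell by 21.9% (adjusted p = 6.5e-04). Of the 4 subunits of GINS, which forms 1 complex with Cdc45 and the ring, 2 fell and 2 did not pass. Gins1 fell by 25.7% (adjusted p = 6.3e-04) and Gins4 by 12.8% (adjusted p = 0.0257), whereas Gins2 had a log2 fold change of -0.15 (adjusted p = 0.0628). Gins3 was at 18.3, 15.1 and 18.9 CPM at 0 h, 16.2, 14.95 and 18.8 CPM at 1 h, and 19.6, 17.3 and 20.9 CPM at 6 h. It was highest at 6 h in each number, with a log2 fold change of 0.14 against 0 h that did not pass (SE 0.06, adjusted p = 0.0927). Exons of Gse1 on the opposite strand cover 67.3% of the exon bases of Gins2, and the difference between the GINS subunits was not tested. Cdc7, the kinase that with Dbf4 triggers firing, was at 81.0, 61.9 and 65.5 CPM at 0 h and 82.5, 57.3 and 68.3 CPM at 6 h, a log2 fold change of -0.01 (adjusted p = 0.946).

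Among primase and the polymerases, 6 of 8 genes fell, and the 2 subunits of polymerase delta did not pass. Pole2, an accessory subunit of polymerase epsilon, which copies the leading strand, was at 24.9, 14.2 and 24.4 CPM at 0 h, 24.3, 13.4 and 24.9 CPM at 1 h, and 16.2, 6.25 and 17.0 CPM at 6 h. The level at 6 h was the lowest within each number and 0 h replicate 2 lay below 6 h replicates 1 and 3. Pole2 fell by 40.6% (log2 fold change -0.75, SE 0.10, adjusted p = 1.2e-04), with within-number differences of -0.63, -1.18 and -0.52. Pola1, the catalytic subunit of polymerase alpha, which starts each new strand, was at 128, 104 and 137 CPM at 0 h, 127, 102 and 127 CPM at 1 h, and 85.1, 58.0 and 94.4 CPM at 6 h. Each 6 h library was below each library of 0 h and 1 h. Pola1 fell by 36.3% (log2 fold change -0.65, SE 0.07, adjusted p = 1.1e-05). Prim2, a primase subunit, fell by 25.6% (adjusted p = 6.6e-05). Pole, Prim1 and Pola2 also fell, by between 14.5% and 22.4%. Pold1 and Pold2, which belong to the lagging strand polymerase, had log2 fold changes of -0.06 (adjusted p = 0.391) and 0.03 (adjusted p = 0.793).

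Pcna, the sliding clamp that holds polymerases on DNA, was at 392, 311 and 395 CPM at 0 h, 385, 311 and 472 CPM at 1 h, and 298, 210 and 316 CPM at 6 h. The highest library was 1 h replicate 3, the 6 h library was lowest within each number, and 6 h replicate 3 was just above 0 h replicate 2. Pcna fell by 25.6% at 6 h (log2 fold change -0.43, SE 0.06, adjusted p = 1.7e-04). Of the clamp loader, Rfc1, Rfc3, Rfc4 and Rfc5 fell, by between 19.1% and 22.7%, and Rfc2 had a log2 fold change of -0.14 (adjusted p = 0.0905). Rfc1 was at 178, 163 and 166 CPM at 0 h and at 145, 125 and 140 CPM at 6 h, with groups that did not overlap, and its adjusted p of 0.0977 without the block was the lowest of the 44 genes.

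Of the genes for single-stranded DNA and the lagging strand, Rpa2 fell by 20.8% (adjusted p = 5.5e-04), Lig1, the ligase that seals Okazaki fragments, by 12.4% (adjusted p = 0.0219), and Rpa1 had a log2 fold change of -0.11 (adjusted p = 0.107). Fen1, the nuclease that trims those fragments, was listed at 2.83, 2.87 and 2.99 CPM at 0 h and 1.82, 2.02 and 2.43 CPM at 6 h. Its groups did not overlap, and it fell by 27.8% (adjusted p = 0.0085). Exons of Gm10143 and Tmem258 on the opposite strand cover 84.2% of the exon bases of Fen1, and how the counting treated reads in such overlaps is not given in the sources used here, so that the level of Fen1 is uncertain. Exons of other genes also cover more than 5% of the exon bases of Orc1, Orc6, Cdc45, Pole2, Rfc2, Rfc4, Rfc5, Lig1 and E2f8, up to 15.1% in Rfc2.

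All 4 genes of deoxynucleotide supply fell. Tyms, thymidylate synthase, was at 85.5, 64.2 and 86.5 CPM at 0 h, 82.2, 63.0 and 95.3 CPM at 1 h, and 58.5, 43.5 and 62.5 CPM at 6 h. Each 6 h library lay below each library of 0 h and 1 h. Tyms fell by 30.6% at 6 h (log2 fold change -0.53, SE 0.05), and its adjusted p of 8.3e-06 was the lowest of the 44 genes. Tk1, thymidine kinase, fell by 22.6% (adjusted p = 2.9e-04). Rrm2 and Rrm1, the subunits of ribonucleotide reductase, fell by 16.1% (adjusted p = 0.00457) and 11.0% (adjusted p = 0.0117). Uhrf1, which guides maintenance methylation to newly copied DNA, was at 316, 167 and 345 CPM at 0 h and 271, 126 and 309 CPM at 6 h, with replicate 2 lowest at both times, and it fell by 16.4% (adjusted p = 0.00546). Without 6 h replicate 2 in the fit of time alone, the log2 fold changes of Uhrf1, Lig1, Rrm2 and E2f2 were 0.08, 0.03, 0.01 and 0.02.

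**Figure D2:**
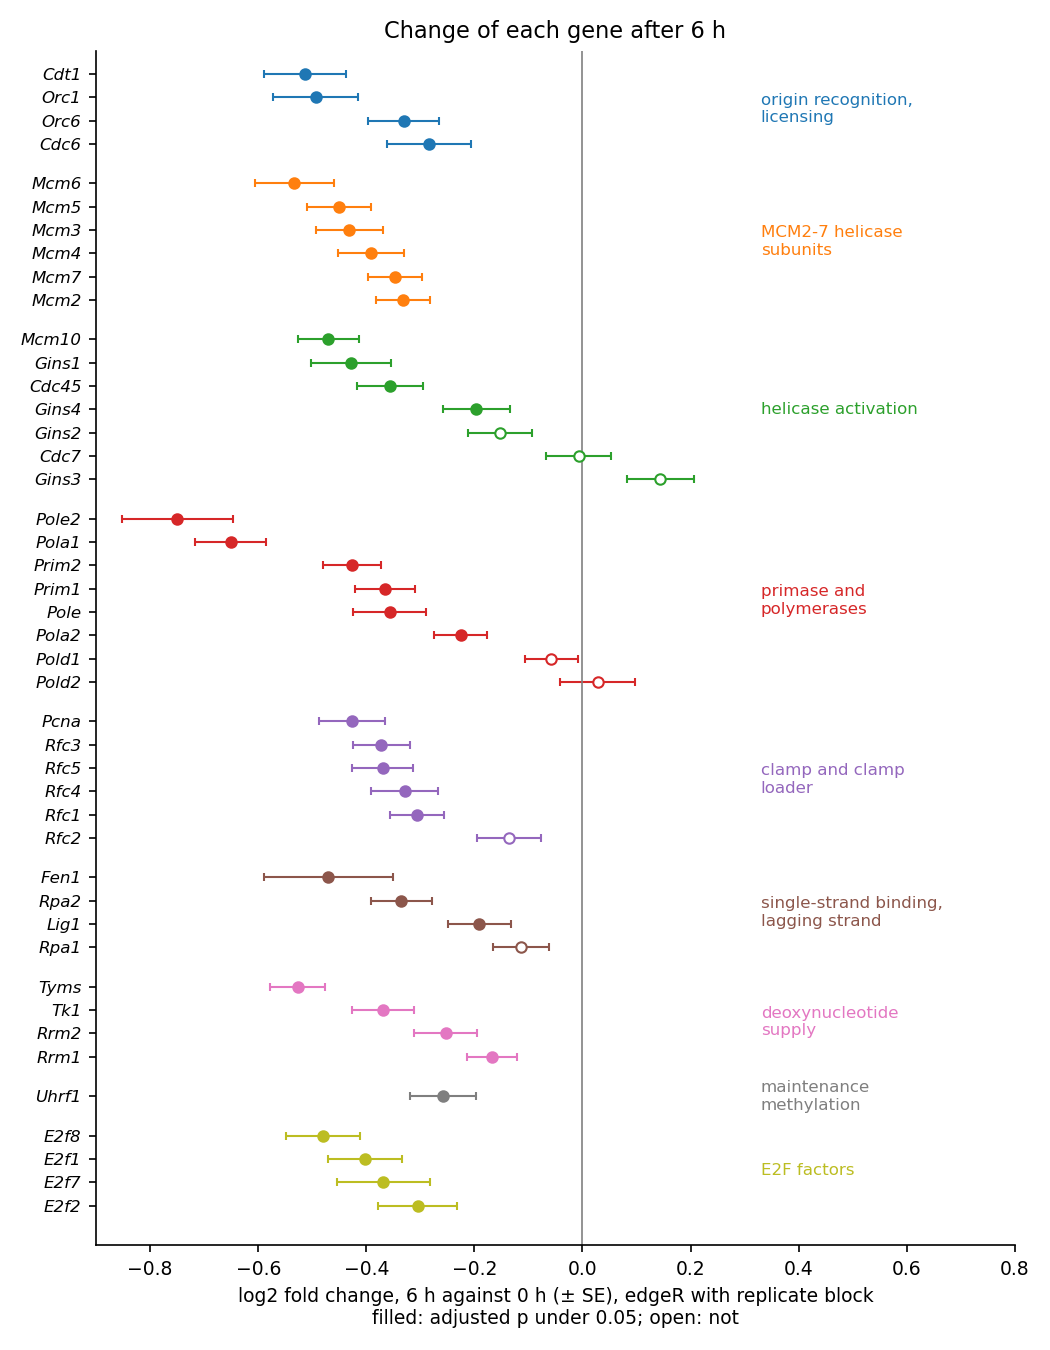
Points are log2 fold changes of the 44 genes at 6 h against 0 h with the replicate block, bars are 1 SE to each side, colours mark the role, and filled points passed an adjusted p of 0.05. Filled points lie between -0.75 (Pole2) and -0.17 (Rrm1), and the 7 open points lie between -0.15 (Gins2) and 0.14 (Gins3).

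The 4 E2F factors all fell at 6 h, and E2f2 and E2f8 had also passed as lower at 1 h. E2f1, an activator, was at 34.4, 23.2 and 30.1 CPM at 0 h, 36.8, 24.9 and 36.3 CPM at 1 h, and 27.5, 15.4 and 24.4 CPM at 6 h. It was highest at 1 h and lowest at 6 h in each number, and the groups overlapped across numbers. E2f1 had a log2 fold change of 0.16 at 1 h that did not pass (SE 0.07, adjusted p = 0.238), and it fell by 24.3% at 6 h against 0 h (adjusted p = 5.7e-04) and by 0.56 on the log2 scale at 6 h against 1 h (adjusted p = 4.9e-05). E2f2, the other activator, was at 33.7, 18.9 and 33.1 CPM at 0 h, 27.1, 15.2 and 25.6 CPM at 1 h, and 28.2, 13.3 and 29.3 CPM at 6 h. All 1 h libraries were below those of the same number at 0 h, and 6 h was higher than 1 h in replicates 1 and 3. E2f2 fell by 0.34 on the log2 scale at 1 h (SE 0.07, adjusted p = 0.0238) and had a log2 fold change of 0.03 at 6 h against 1 h (adjusted p = 0.794).

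Of the repressors, E2f8 was at 57.9, 37.0 and 57.5 CPM at 0 h, 45.1, 32.1 and 42.6 CPM at 1 h, and 43.8, 24.4 and 42.0 CPM at 6 h. It was lower at 1 h than at 0 h in each number and lowest at 6 h, with overlap between times because replicate 2 was low. E2f8 fell by 0.33 on the log2 scale at 1 h (SE 0.07, adjusted p = 0.0179) and by 0.48 at 6 h against 0 h (SE 0.07, adjusted p = 1.6e-04), and its log2 fold change at 6 h against 1 h was -0.15 (adjusted p = 0.109). E2f7 was at 33.3, 19.9 and 36.0 CPM at 0 h, 27.5, 19.5 and 27.6 CPM at 1 h, and 26.0, 14.1 and 29.8 CPM at 6 h. It was lower at 1 h than at 0 h in replicates 1 and 3 and nearly level in replicate 2, and its log2 fold change was -0.23 at 1 h (adjusted p = 0.187). It fell by 22.6% at 6 h (adjusted p = 0.00495). Whether the factors differed from each other in their time course was not tested.

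**Figure D3:**
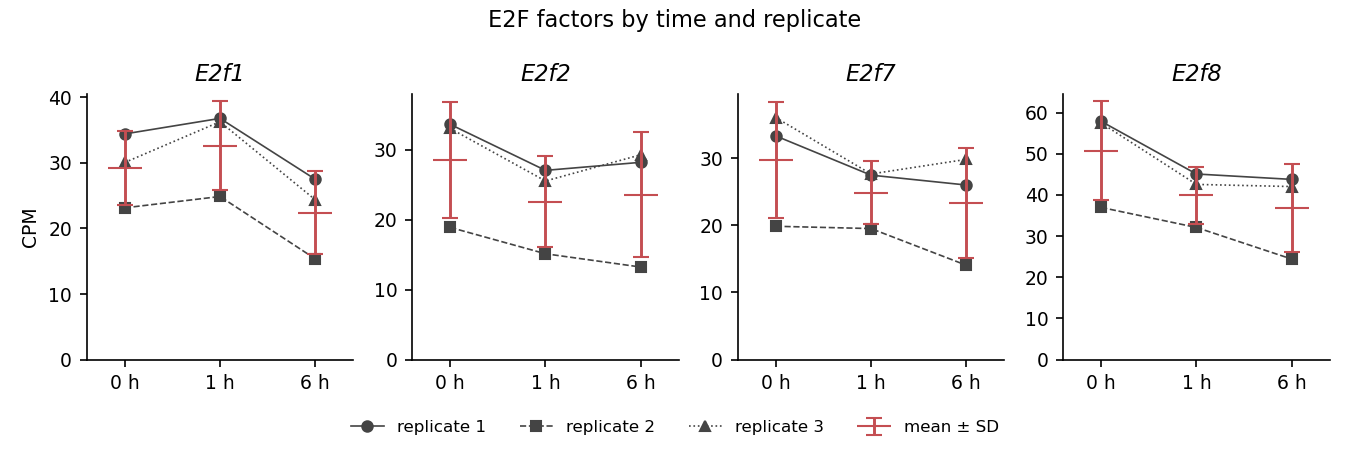
Grey points joined by lines are CPM of E2f1, E2f2, E2f7 and E2f8 by time in replicates 1, 2 and 3, and red bars are the mean ± SD of 3 libraries. At 1 h, E2f1 was above its 0 h value in all 3 replicates while E2f2 and E2f8 were below theirs, and replicate 2 was lowest in every panel.

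At 1 h most of the 44 genes lay close to their level at 0 h. In the fit of time alone, 0 of the 44 passed in either direction, all with an adjusted p of 1, where 0% of all genes passed as lower. At an unadjusted p under 0.05, 0 of the 44 were lower or higher, beside 459 lower and 276 higher of the 18858 tested genes. DESeq2 without the block called 0 of the 44. With the block, E2f2 and E2f8 fell and none rose, which is 2 of 44 beside 2.14% of all genes lower. The median log2 fold change over the 44 was 0.02 with the block, and 0.03 without it, and the latter lay between -0.10 (without 0 h replicate 2) and 0.17 (without 1 h replicate 2). Both calls rested on 3 replicate numbers. When number 1 or number 3 was left out neither gene passed, and without number 2 E2f8 alone did, with log2 fold changes of E2f2 between -0.34 and -0.31 and of E2f8 between -0.40 and -0.28.

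From 1 h to 6 h, 36 genes were lower and Gins3 alone was higher with the block. Over all genes, 17.5% were lower and 18.0% higher by that rule. Without the block 0 of the 44 passed, beside 0.663% of all genes past the threshold as lower. At an unadjusted p under 0.05, 9 of the 44 were lower, beside 1509 of the 18858 tested genes. DESeq2 without the block called 3, Orc6, Gins4 and Pola1, and its share over all genes is not given for this comparison. The comparison uses the same 6 h libraries as that with 0 h, so the 2 are not independent. Gins3 rose by 0.21 on the log2 scale (SE 0.06, adjusted p = 0.0195), and Tyms had the lowest adjusted p, 6.4e-06, at a log2 fold change of -0.55. The genes that did not pass were Cdc6, Cdc7, Pold1, Pold2, E2f2, E2f7 and E2f8.

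Levels were compared between genes at 0 h as FPKM, which is CPM divided by the exon length in kilobases, given as mean ± SD of 3 libraries. Pcna was highest at 152 ± 19.8 FPKM, followed by Rrm2 at 128 FPKM, Mcm6 at 77.8 ± 25.7 FPKM and Mcm3 at 74.7 ± 26.0 FPKM. The 6 helicase subunits, which assemble in equal numbers, lay between 34.5 ± 7.69 FPKM (Mcm2) and 77.8 FPKM, and Mcm3, Mcm4 and Mcm6 did not keep 1 order, since Mcm3 was the highest of these 3 in replicate 1, Mcm4 in replicate 2 and Mcm6 in replicate 3. The exon length used decided part of this order, since with the longest transcript of each gene the 6 subunits lay between 59.9 FPKM (Mcm5) and 84.3 FPKM (Mcm7), with Mcm2 at 68.7 FPKM. The E2F factors were among the low genes, at 9.33 ± 2.20 FPKM for E2f8, 9.26 ± 1.80 for E2f1, 5.85 ± 1.71 for E2f2 and 3.30 ± 0.961 for E2f7. E2f8 was above E2f1 in replicate 3 and below it in replicates 1 and 2. E2f2 was above E2f7 in each 0 h library, and the SDs over libraries include the offset of replicate 2. With the longest transcripts E2f2 was also above E2f7 in each library, in replicates 1, 2 and 3 at 7.10, 3.99 and 6.98 FPKM against 6.09, 3.63 and 6.58 FPKM. Fen1 was lowest, at 1.20 ± 0.0348 FPKM, with the shared exons given above.

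Genes of the same pathways outside the 44 were placed beside them, at 6 h against 0 h and with the block. Of 31 other replication genes, 23 fell and 2 rose, with a median log2 fold change of -0.27. Dscc1 and Wdhd1, which work at the moving fork, fell by 0.75 (adjusted p = 1.8e-04) and 0.52 (adjusted p = 3.8e-05) on the log2 scale. Tipin, of the fork protection complex, fell by 0.66 (adjusted p = 7.5e-06), and Pole4, a small subunit of polymerase epsilon, by 0.50 (adjusted p = 5.1e-05). The 2 that rose, named after their values were seen, were Pold4 and Rnaseh2c. Of 28 other genes of the G1/S wave, 25 fell and 0 rose, with a median of -0.39. Nasp, a histone chaperone, was at 371, 305 and 360 CPM at 0 h and at 234, 185 and 245 CPM at 6 h, with groups that did not overlap, and it fell by 0.65 (adjusted p = 1.1e-06). Ccne2, the G1/S cyclin, fell by 0.71 (adjusted p = 4.3e-05), Hells by 0.70 (adjusted p = 7.7e-05) and Chaf1b by 0.69 (adjusted p = 8.2e-06).

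The other 3 lists held genes of mitosis, of RB and E2F control and of G1 control. Of 26 G2/M genes, 6 fell and 1 rose, with a median log2 fold change of -0.05, beside the 17.5% and 17.4% of all genes. Top2a, the topoisomerase that untangles chromosomes, fell by 0.23 (adjusted p = 0.00312), Bub1 and Ttk, kinases of the spindle checkpoint, fell by 0.27 and 0.26, and Ccnb2 rose by 0.34 (adjusted p = 0.0282). Ccnb2 was at 23.3, 20.7 and 49.0 CPM at 0 h and at 32.9, 29.0 and 49.6 CPM at 6 h, so that it was higher in replicates 1 and 2 and nearly level in replicate 3. Of 15 RB, E2F and DREAM regulators, 6 fell and 1 rose, with a median of -0.15. Rbl1, which codes for p107, fell by 0.59 (adjusted p = 1.3e-05), Mybl2 by 0.43 (adjusted p = 5.9e-04) and Tfdp1, the partner of E2F factors, by 0.36 (adjusted p = 6.2e-05), whereas Rbl2, which codes for p130, rose by 0.28 (adjusted p = 0.00316). Of 13 G1 cyclins, kinases and inhibitors, 4 fell and 3 rose, among them Ccnd2, which fell by 0.46 (adjusted p = 1.5e-04), Ccnd1, which fell by 0.27 (adjusted p = 0.00216), and the inhibitors Cdkn2d and Cdkn1c, which rose by 0.35 (adjusted p = 0.00136) and 0.79 (adjusted p = 0.0126), the latter from a level of 0.470, 0.473 and 0.702 CPM at 0 h. The third that rose was Ccnd3. Differences between the lists were not tested. Among their promoters, the motif was found in 8 of 25 other replication genes, 7 of 20 other G1/S genes, 4 of 11 RB, E2F and DREAM regulators, 2 of 10 G1 genes and 1 of 21 G2/M genes.

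**Figure D4:**
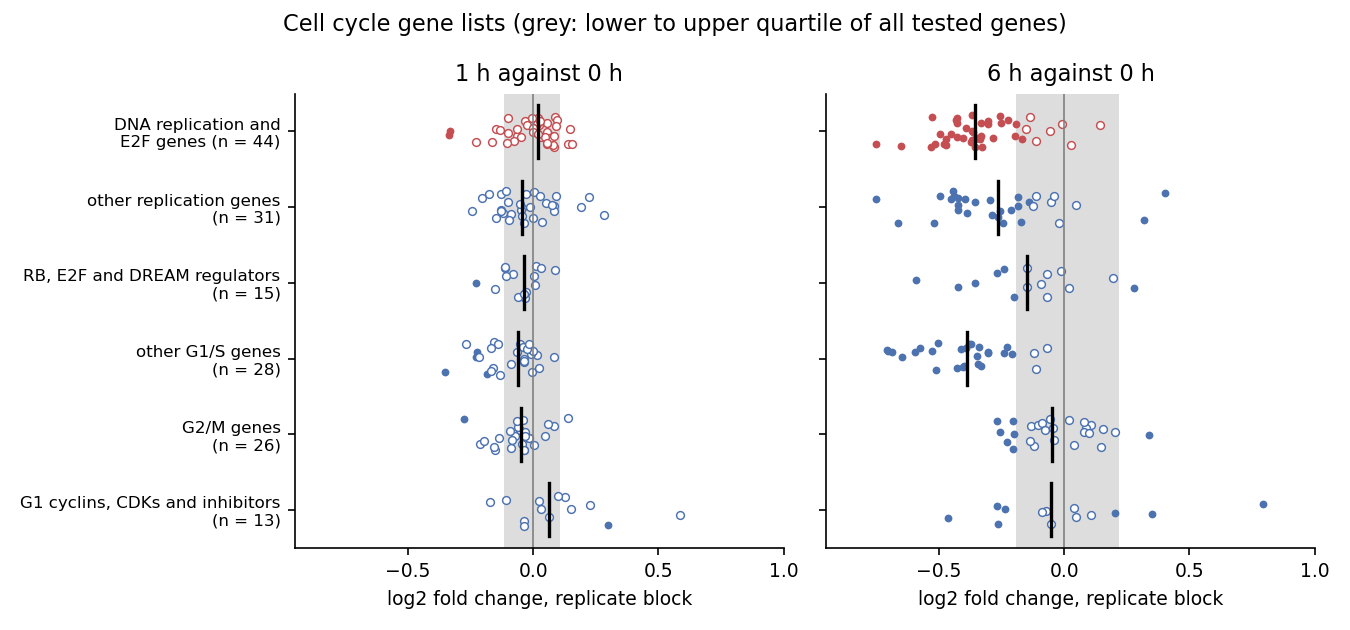
Points are log2 fold changes of single genes with the replicate block at 1 h and at 6 h against 0 h, filled where the adjusted p was under 0.05, in the 44 DNA replication and E2F genes (red) and 5 other lists (blue), with black bars for medians and a grey band between the lower and upper quartiles of all tested genes. At 1 h all medians lie inside the band, and at 6 h those of the 44 genes (-0.36), the other replication genes (-0.27) and the other G1/S genes (-0.39) lie to its left.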

How the data were processed

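The authors extracted total RNA, made stranded mRNA libraries, sequenced them as paired ends, aligned and counted the reads on genes with STAR 2.5.3a against mm10 (GRCm38), and deposited raw counts per gene without normalisation. The strand setting of the counting is not given in the sources used here. Each of the 9 columns matched 1 library by its label, and no row lacked a gene identifier. Symbols and positions came from GENCODE M21, which named 48058 of 48526 identifiers.

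Genes were kept with filterByExpr of edgeR 4.0.16 (at least 10 counts, and at least 15 in total), with TMM scaling, in R 4.3.3. All 9 libraries were fitted together with glmQLFit and glmQLFTest, with time point as the group, and again with the replicate number as a block. p-values were adjusted by Benjamini-Hochberg over 18858 genes at a threshold of 0.05, and standard errors follow from fold change and F value. Values in log2 CPM used a prior count of 2. The scripts were tested on simulated data. DESeq2 1.42.0, pandas 2.3.3, numpy 2.4.6 and matplotlib 3.10.9 were also used.

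The replicate numbers come from the labels. After the mean of each time point was subtracted, libraries of the same number correlated at between 0.733 and 0.800 in 9 pairs and those of other numbers at between -0.462 and -0.314 in 18 pairs, so the numbers pair the samples. The block lowered the common biological coefficient of variation from 0.277 to 0.0627.

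The 44 genes, the other lists and the tests were chosen with earlier results of these data known. Named genes were up to 3 per role that passed at 6 h in either fit, by the size of the fold change with the block, the E2F factors, Mcm2 to Mcm7 and Pcna in any case, up to 5 per direction at 1 h, and up to 4 per other list. Alternatives were DESeq2, RLE scaling, library totals, no filter, a mean of at least 1 CPM, only the 6 libraries compared, trends with GC content and length removed, a threshold of 0.01 and leaving out libraries. FPKM used the union of exons of a gene. Differential expression by the authors and the splicing analysis of the study were not used here.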

Additional observations from a re-analysis of the deposited data

How the results depend on the processing

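Without the replicate block, the lower genes of the 44 numbered 0 in each comparison and also 0 in each fit that left out 1 library, and the replicate block changed this to 37 at 6 h against 0 h, to 36 lower and 1 higher at 6 h against 1 h, and to 2 lower at 1 h against 0 h, while DESeq2 gave 3 lower in both comparisons with 6 h. The cause of the difference between edgeR and DESeq2 was not tested. With the block, the 37 lower genes at 6 h against 0 h became between 27 and 38 when the libraries of 1 replicate number were left out. Of the 37, 33 passed without number 1, 27 without number 2 and 37 without number 3, and 27 passed in all 3 of these fits. In all of the fits with DESeq2, RLE scaling, library totals, no filter and GC content and length trends removed, 36 of the 37 passed. The 2 genes lower at 1 h numbered 0 at a threshold of 0.01 and between 0 and 1 when 1 number was left out, and the 1 gene higher at 6 h against 1 h numbered 2 with library totals or with trends removed, 0 at a threshold of 0.01 and between 0 and 1 when 1 number was left out. Leaving out 1 library moved the median log2 fold change without the block to between -0.47 (without 0 h replicate 2) and -0.16 (without 6 h replicate 2) at 6 h against 0 h, to between -0.45 (without 1 h replicate 2) and -0.17 (without 6 h replicate 2) at 6 h against 1 h, and to between -0.10 and 0.17 at 1 h against 0 h. Without the block, leaving out 1 library turned the direction at 6 h of 5 named genes that had not passed. The values lay between -0.303 and 0.034 for Lig1, -0.412 and 0.006 for Rrm2, -0.481 and 0.081 for Uhrf1, -0.493 and 0.019 for E2f2 and -0.002 and 0.757 for Ccnb2. No alternative with the block turned the direction of a named gene, and with 1 replicate number left out 135 values stayed on their side of the threshold and 18 no longer passed. Each spelling of the E2F motif alone was found in 7, 0, 7 and 7 of the 37 promoters for TTTGGCGC, TTTGCCGC, TTTCGCGC and TTTCCCGC. Fen1, at under 3 CPM, had the fewest counts of the 44 genes, so its values carry the widest counting error.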

Other observations

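At 1 h against 0 h, with the replicate block, few genes of the other cell cycle lists passed, and they are named here after their values were seen. Lower were 4 of 28 other G1/S genes, 1 of 15 RB, E2F and DREAM regulators and 1 of 26 G2/M genes. Of 13 G1 cyclins, kinases and inhibitors 1 was higher, and of 31 other replication genes 0 passed. Over all 18858 genes, 2.14% passed as lower and 257 genes as higher. Fits that left out a replicate number are not given for these genes. Cdca7, a target of the G1/S wave, fell by 0.35 on the log2 scale (adjusted p = 0.00574), Cdc25a, the phosphatase that activates Cdk2, by 0.22 (adjusted p = 0.0392), Casp8ap2 by 0.23 (adjusted p = 0.0414) and Msh6, of mismatch repair, by 0.18 (adjusted p = 0.0414). E2f3, the third of the activating E2F factors, fell by 0.23 (adjusted p = 0.04), and Cenpe, a motor at the kinetochore, by 0.28 (adjusted p = 0.0104). Cdkn1a, the inhibitor p21, rose by 0.30 (adjusted p = 0.00249). In edgeR without the block, 0 genes passed as lower and 8 as higher at 1 h over all 18858 genes, with 459 lower and 276 higher at an unadjusted p under 0.05.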
